A study of Saccharomyces cerevisiae with 6 samples.

Results

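The centromere region of chromosome XV was examined for differences in Rec8 between ctf19-9A and WT budding yeast in meiotic prophase I. It was taken as all 20 bp bins of the deposited comparison that started between 276482 and 376482 on chromosome XV (build R64), 50 kb on each side of the middle of the gap between PHO80, the innermost left-arm gene, and RRP6, the innermost right-arm gene. The choice used position alone, and 233 of the 14224 listed bins of the genome met it. The diploid groups were 3 ctf19-9A cultures, which carried Rec8-3xFLAG-MNase, ndt80-delta and the ctf19-9A allele, and 3 WT cultures, which carried Rec8-3xFLAG-MNase and ndt80-delta. In both groups Rec8 was thus fused to micrococcal nuclease (MNase) and a FLAG tag, and both lacked NDT80, whose product takes cells out of meiotic prophase I, so WT here is not an unedited strain. The strain background is labelled X and Y without further explanation. Each culture came from a colony of a separate zygote. It was kept in YP acetate medium for 16 h and in 1% potassium acetate for 4.5 h. It was given 2 mM CaCl2 for 5 min, which lets the nuclease cut DNA beside Rec8 (ChEC-seq).

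Rec8 is the meiotic kleisin of cohesin, a ring-shaped complex that ties sister chromatids to each other. The kinetochore protein Ctf19 recruits the cohesin loader to the centromere through its phosphorylated N-terminal part, and ctf19-9A is an allele in which phosphorylation sites there were replaced by alanine. Cohesin loaded at the centromere is known to spread into the flanking pericentromere and to build up where genes converge, that is, where transcription of neighbouring genes runs towards a shared 3′ side. The question was where around the centromere of XV Rec8 cleavage differed between the genotypes, by arm, gene and convergent gene pair.

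All values of single bins are those of the authors' deposited table, which holds a log2 fold change, a p-value and an adjusted p for each bin and no value for a single sample. The depth of each sample is therefore unknown, no SD between cultures can be given, and no test beyond the authors' own could be made. Errors are standard errors (SE) implied by the fold change and its p, computed here along with the 95% intervals and not part of that table. Every listed bin had an adjusted p under 0.05, so the medians describe bins that passed and overstate the average change of a stretch that was listed only in part. The direction of the ratio is not stated. It is likely to be ctf19-9A over WT, because Ctf19 recruits the loader. Under that reading a negative value means weaker Rec8 cleavage in the mutant, and a level in percent is that of ctf19-9A relative to WT. With the sign turned, every direction below swaps.

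Rec8 cleavage near this centromere was changed in the negative direction, in 2 zones that flanked the centromere and reached farther on the right arm. Of the 233 bins, 228 were negative and 5 positive. Negative bins made up 4.56% of the window's 5000 possible bins, against 0.925% of all bins in the annotated nuclear genome. Positive bins made up 0.1%, against 1.43%. They were few near other centromeres too, with 2 to 54 in the same window of the other 15 chromosomes and a median of 15. Of the 154927 bins that the authors' adjustment implies were tested, 3.6% were negative and 5.58% positive, and how many of these lay in the window is not known. The median of the negative bins was -0.63 (median SE 0.17) and their middle 50 percent ran from -0.79 to -0.54. That median equals 64.5% of WT under the likely reading. The median of the negative bins in the same window of the other 15 chromosomes was -0.73.

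**Figure D1:**
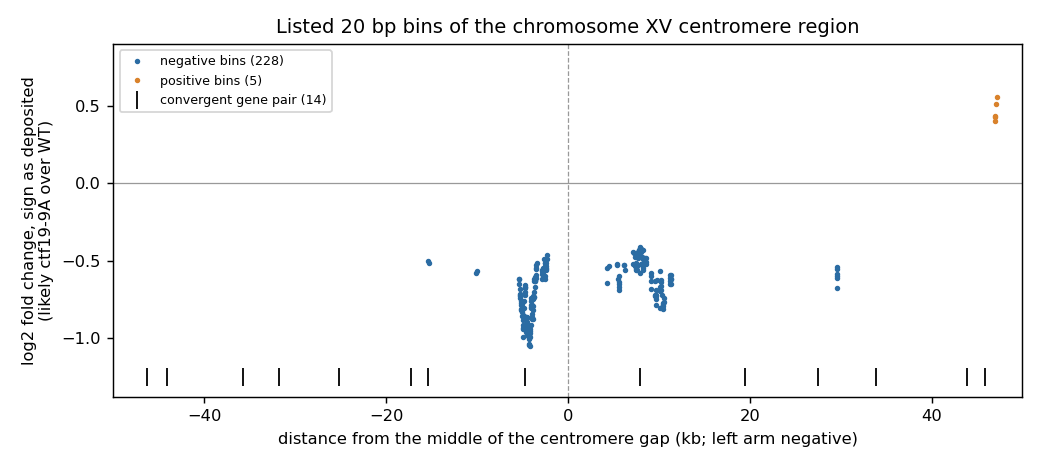
Log2 fold change of the 233 listed bins (points, blue negative and orange positive) against distance from the middle of the centromere gap in kb, with ticks for the 14 convergent gene pairs. The negative bins lie in a zone on each side of the centromere and at a few sites farther out, and the 5 positive bins lie together near the right edge.

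Nothing was listed at the centromere itself. The gap between PHO80 and RRP6 (326131 to 326831, 701 bp) held no bin of either sign, and the unlisted stretch around it ran from 324181 to 330800, or 6.62 kb. It holds PHO80, which encodes the cyclin of the phosphate-responsive kinase Pho85, and RRP6, which encodes a nuclease of the nuclear exosome, with 45 and 111 possible bins. A bin without an entry may have been untested or may have missed the threshold, and these cannot be told apart. The nearest negative bin was 2.31 kb from the middle of the gap on the left arm and 4.33 kb on the right. In the other 15 windows that distance ran from 1.57 to 5.95 kb on the left and from 0.637 to 8.34 kb on the right.

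Of the negative bins, 194 (85.1%) lay within 10 kb of the middle of the gap and 222 (97.4%) within 20 kb. The left arm had 123, all but 4 of them 2 to 6 kb out, with a median of -0.74 and a range of -1.05 to -0.47. The right arm had 105, of which 99 were spread from 4 to 12 kb, with a median of -0.56 and a range over the arm of -0.81 to -0.41. The left zone was thus nearer, denser and lower, although the ranges of the arms overlapped. From 4 to 5 kb on the left arm all 50 possible bins were negative, with a median of -0.92, whereas the fullest 1 kb on the right arm, from 7 to 8 kb, held 26 with a median of -0.48. With an adjusted p under 0.01, 89 bins were left on the left arm and 21 on the right, and log2 values of -1 or lower were held by 4 bins, all on the left. Whether the arms differed was not tested, since no value per culture is given.

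Joining negative bins whose starts were at most 500 bp apart gave 10 regions, 4 on the left arm and 6 on the right. The 3 regions with 10 or more bins held 196 (86.0%) of the negative bins. They covered the 3′ end of SIN3 with PFA4, then IZH2, and the pair UTP23 and DNL4. Neighbouring bins carried nearly the same value. In 198 pairs of touching bins the values differed by a median of 0.027 and by no more than 0.15, less than the median SE of 0.17 in all 198, and the bins of a region are not treated as independent measurements.

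**Figure D2:**
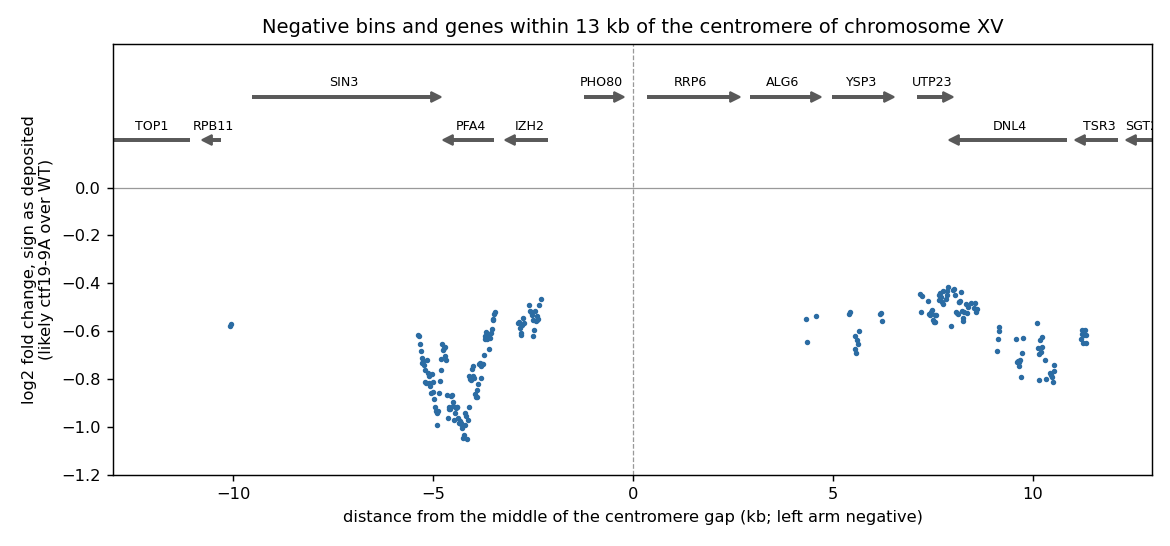
Log2 fold change of the negative bins within 13 kb of the middle of the centromere gap, in kb, with genes drawn above as arrows in the direction of transcription (upper row left to right, lower row right to left). The left arm's bins dip to -1.05 over PFA4 and the right arm's reach -0.81 in DNL4, while no point lies over PHO80 or RRP6.

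The left zone lay around the convergent pair SIN3 and PFA4, the first met when moving out from the centromere on that arm. SIN3 encodes a subunit of histone deacetylase complexes, and PFA4 a palmitoyltransferase of the endoplasmic reticulum. The region from 321101 to 323040 was filled without a break: all 97 of its possible bins were negative, 85 of them with an adjusted p under 0.01. Their median was -0.80, or 57.3% of WT under the likely reading. No bin within it was missing from the table, so this median covers every bin between its edges. The edges themselves were set by which bins passed the threshold.

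PFA4 (321858 to 322994, minus strand) was covered in full, with 58 of 58 bins negative, a median of -0.86 and a range of -1.05 to -0.55. The window's lowest bin lay inside it (322321 to 322340), and the authors' deposited table gave it a log2 fold change of -1.05 and an adjusted p of 1.29e-06. Its implied SE was 0.18 and its 95% interval -1.40 to -0.70. That bin corresponds to 48.3% of WT under the likely reading. SIN3 (316938 to 321548, plus strand) had listed bins only towards its 3′ end. Its 23 bins of 232 all lay nearer to the 3′ than the 5′ end, the first of them 4172.5 bp from its start, with a median of -0.78, the lowest being -0.93 in the authors' deposited table (SE 0.17, adjusted p 9.9e-06).

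Between the 3′ ends of SIN3 and PFA4, 309 bp apart, all 16 bins were negative with a median of -0.79, and the profile had 2 dips. In the authors' deposited table the value was -0.99 (SE 0.17) at 321561 to 321580, beside the end of SIN3, then -0.66 (SE 0.17) at 321701 to 321720, in the middle, and -1.05 (SE 0.18) in PFA4. The 95% intervals of these 3 bins overlapped, -1.32 to -0.66, -0.98 to -0.33 and -1.40 to -0.70, and the differences between them were not tested. The outermost bins of the block had -0.62 (SE 0.20) in SIN3 and -0.52 (SE 0.17) between PFA4 and IZH2 in the authors' deposited table. At the median SE near these edges, the smallest change able to pass the authors' threshold was 0.56 and 0.45. The block ends where bins stop passing, so end values near these limits follow from how its edges were set. They cannot show whether the change itself faded there.

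IZH2 (323411 to 324364, minus strand), for a membrane protein linked to zinc metabolism, lay between this block and the centromere. It held 22 negative bins of 49, with a median of -0.55, the lowest being -0.62 in the authors' deposited table (323981 to 324000, SE 0.16, adjusted p 0.0046). Its range, -0.62 to -0.47, lay above the median of PFA4. The middle of its outermost bins lay 193.5 bp from its start and 199.5 bp from its end.

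**Figure D3:**
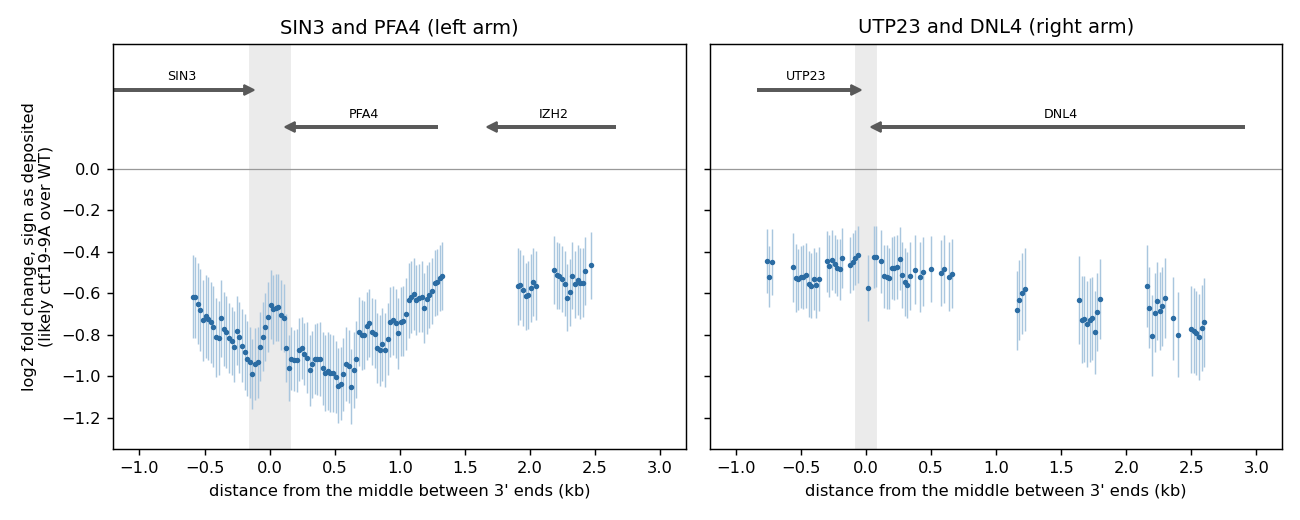
Log2 fold change with its implied SE (bars) of listed bins over the first convergent pair of each arm, against distance from the middle between the 3′ ends in kb, with the sequence between the ends shaded. Over SIN3 and PFA4 the bins form an unbroken profile down to -1.05, and over UTP23 and DNL4 they lie between -0.81 and -0.41 with gaps in DNL4.

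The right zone lay around the first convergent pair of its arm and reached past it. The pair was taken here as the sequence between the 3′ ends with 500 bp of each gene. On that count 17 negative bins lay on its centromere side, 42 at it and 46 beyond. Bins farther into DNL4, a gene of the pair, count as beyond. Past DNL4 lay 8 negative bins in TSR3 and 6 between YOR011W-A and YOR012W. RRP6, ALG6, YSP3 and UTP23 are all transcribed away from the centromere, and the first convergent pair is UTP23 and DNL4, 7.95 kb out, against 4.78 kb for SIN3 and PFA4. UTP23 encodes a factor of small-subunit rRNA processing, and DNL4 the DNA ligase of non-homologous end joining. The region from 333661 to 337040 held 77 negative bins of 169 possible (45.6%), with a median of -0.53, or 69.3% of WT under the likely reading, and 19 bins with an adjusted p under 0.01.

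UTP23 (333592 to 334356, plus strand) held 24 negative bins of 39, with a median of -0.48, the lowest being -0.56 in the authors' deposited table (334001 to 334020, SE 0.16, adjusted p 0.0093). The 152 bp between its 3′ end and that of DNL4 were touched by 5 negative bins, with a median of -0.43. DNL4 (334509 to 337343, minus strand) held 50 of 143, with a median of -0.63. In its last 1000 bp, next to UTP23, 21 bins had a median of -0.50, and in the rest of the gene 29 bins had a median of -0.72. The lowest bin of the right arm lay in the rest, near the start of DNL4 (336981 to 337000), for which the authors' deposited table gave -0.81 with an adjusted p of 0.00385. Its implied SE was 0.21 and its 95% interval -1.22 to -0.41.

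The step within DNL4 went along with a larger error. The median SE was 0.16 in the last 1000 bp and 0.20 in the rest, so that the smallest change able to pass the authors' threshold at those errors was 0.45 and 0.57. Values near -0.50 could hardly have been listed in the rest of the gene, and the part of the threshold in the step was not tested. The same limit was 0.48 in the SIN3 and PFA4 block, far from its lower values.

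**Figure D4:**
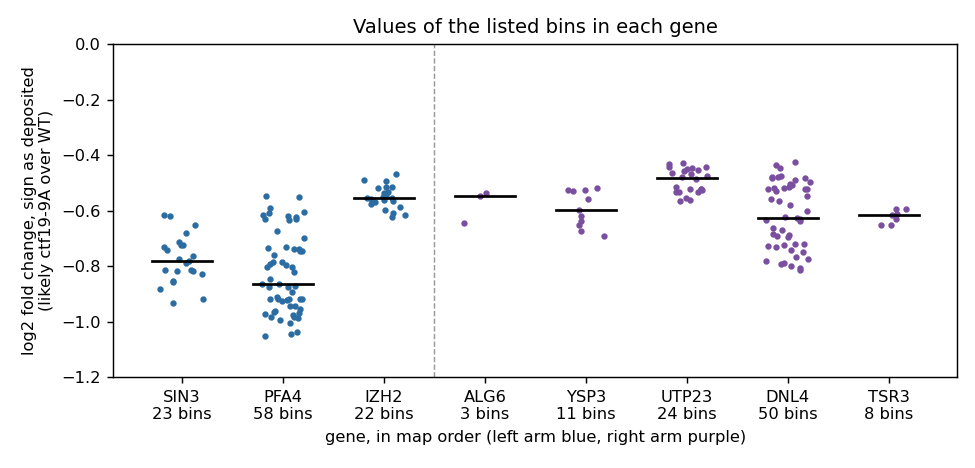
Log2 fold change of each listed bin (points, spread sideways for sight) in the 8 genes with negative bins, in map order, with the median as a line. PFA4 has the lowest median, -0.86, and UTP23 the one nearest to 0, -0.48.

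The remaining right-arm genes held fewer bins. ALG6, for a glucosyltransferase of N-glycan synthesis, had 3 negative bins of 83, all nearer to its 3′ end, and the authors' deposited table gave the lowest as -0.64 (SE 0.19, adjusted p 0.0193). YSP3, for a putative subtilisin-type protease, had 11 of 73 in 2 regions, and the authors' deposited table gave -0.69 at 332061 to 332080 (SE 0.19, adjusted p 0.0074). TSR3, for an enzyme that modifies 18S rRNA, lies beyond DNL4 and had 8 touching bins at its 3′ end, with a median of -0.62, the lowest being -0.65 in the authors' deposited table (SE 0.20, adjusted p 0.0189). None of the bins in ALG6 or TSR3 passed an adjusted p of 0.01, and 2 in YSP3 did.

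Of the 56 annotated genes that touch the window, 8 (14.3%) held a negative bin, against 2.74% of all annotated genes, and 1 (1.79%) a positive one, against 9.17%. All 8 were among the 12 genes whose nearer edge is within 12 kb of the middle of the gap. The other 4 of these 12 were PHO80, RRP6, RPB11 and TOP1. RPB11 encodes a subunit of RNA polymerase II and TOP1 DNA topoisomerase I. None of the 5 tRNA genes held a bin. By the middle of the bin, 197 of the 228 negative bins (86.4%) lay in genes, 69.5% of the window's sequence. A further 21 (9.21%) lay between convergent genes, 3.82% of the window, with 18 of these on the left arm and 3 on the right. Tandem sequence held 8 and divergent sequence 2, and these classes make up 14.02% and 12.6% of the window. These shares rest on a few blocks of alike neighbouring bins: 16 of the 21 bins lay between SIN3 and PFA4 alone. As 97.4% of the negative bins lay within 20 kb, class and distance from the centromere cannot be told apart here. No preference for a class was tested.

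Negative bins were found at the convergent pair nearest to the centromere on each arm and at 1 pair farther out. Taking the sequence between the 3′ ends with 500 bp of each gene, 3 of the window's 14 pairs (21.4%) held a negative bin and 0 a positive one, against 4.06% and 28.7% of all convergent pairs. A higher negative share was not particular to pairs. It was 14.3% against 2.74% for annotated genes and 4.56% against 0.925% for all bins. The pair SIN3 and PFA4 held 63 negative bins and UTP23 and DNL4 42. The other one was COQ10 and CSI2, 15.3 kb out on the left arm, for a mitochondrial coenzyme Q-binding protein and a protein linked to chitin synthesis. Its 2 bins both lay between the 3′ ends, the lower of them at -0.52 in the authors' deposited table (311201 to 311220; SE 0.18, adjusted p 0.0476), just inside the threshold. The remaining 11 pairs held no bin, among them TIR4 and TIR2, the next pair on the right arm at 19.5 kb, and RCL1 and MDM12 at 17.3 kb on the left.

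Isolated negative sites made up the rest. On the left arm, 2 bins 10.1 kb out lay between the divergent genes RPB11 and SIN3 (316401 to 316440), the lower of them at -0.58 in the authors' deposited table (SE 0.20, adjusted p 0.044). The outermost negative bins of the window were 6 touching ones on the right arm (356021 to 356140), 29.5 to 29.6 kb out, between YOR011W-A and YOR012W, with a median of -0.59, the lowest being -0.67 in the authors' deposited table (SE 0.19, adjusted p 0.0139). Between TSR3 and this site no bin was listed. In the other 15 windows the outermost negative bin of the right arm was 4.30 to 30.4 kb out, with a median of 10.8 kb, so the place of XV near the far end of that range rests on those 6 bins. Its outermost left bin, at 15.4 kb, lay within a range of 4.72 to 24.3 kb.

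The 5 positive bins lay together on the right arm, 46.9 to 47.2 kb out (373421 to 373660), across the start of SFM1 and the sequence between it and DDL1. SFM1 encodes a methyltransferase that modifies a ribosomal protein, and DDL1 a mitochondrial phospholipase. Their median was 0.43, or 135% of WT under the likely reading, and their range 0.40 to 0.56. The bin at 373641 to 373660 was the highest, at 0.56 in the authors' deposited table (SE 0.16, adjusted p 0.0169), and none passed an adjusted p of 0.01. On the left arm the window held no positive bin, the nearest being 61.2 kb out with 0.54 in the authors' deposited table.

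Set beside the same window of the other 15 chromosomes, the negative region of XV was small and shallow in count and size. Its 228 negative bins ranked 13 of 16 from the most, against a range of 105 to 537 and a median of 366 on the others. Its median ranked 13 from the lowest, and its lowest bin, -1.05, ranked 11, against -1.55 to -0.83. Chromosomes VII and XII, the nearest to XV in annotated length, had 447 and 443 negative bins. Their medians were -0.66 and -0.65 and their lowest values -1.13 and -1.01. Beyond 10 kb XV had 34 negative bins and ranked 10 of 16 from the most, against a range of 0 to 229 and a median of 57 on the others. VII with 207 and XII with 229 had the highest counts there. The median SE of the negative bins was 0.169 on XV and 0.18 and 0.19 on VII and XII. Over the other 15 windows it ran from 0.168 on VI to 0.192 on III. A smaller SE lets a smaller change be listed, and its part in the ranks of the medians was not tested. No test of these differences was made, because bins of 1 window are not replicates.

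In counts chosen after values were seen, the negative bins of XV were placed relative to the first convergent pair of each arm. Only pairs that do not span the centromere were counted. With 500 bp of each gene, these 2 pairs held 46.1% of the window's negative bins, against 4.55 to 37.2% on the other chromosomes, with a median of 18.6%. The nearest value was that of VIII, and VII had 11.4% and XII 14.4%. With the whole of all 4 genes, the share on XV was 75.4%, below 82.9% on I and 77.5% on VIII. With 500 bp of each gene, a further 32.0% lay on the centromere side of the pairs and 21.9% beyond them. The share beyond was 18.1 to 90.9% on the others, with a median of 66.0%. On the left arm 56 bins lay inside the pair, 63 at it and 4 beyond, while on the right arm the bins beyond the pair were the most numerous of the 3 classes. Bins farther into PFA4 count as inside here, and those farther into DNL4 as beyond. In number of bins the pairs of XV were matched elsewhere. Of the 32 arms, 16 had more than 40 negative bins at their first pair, both arms of XV among them. Of the 30 arms of other chromosomes, 23 had at least 1. The large share on XV thus went with a small total and few bins beyond the left pair.

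**Figure D5:**
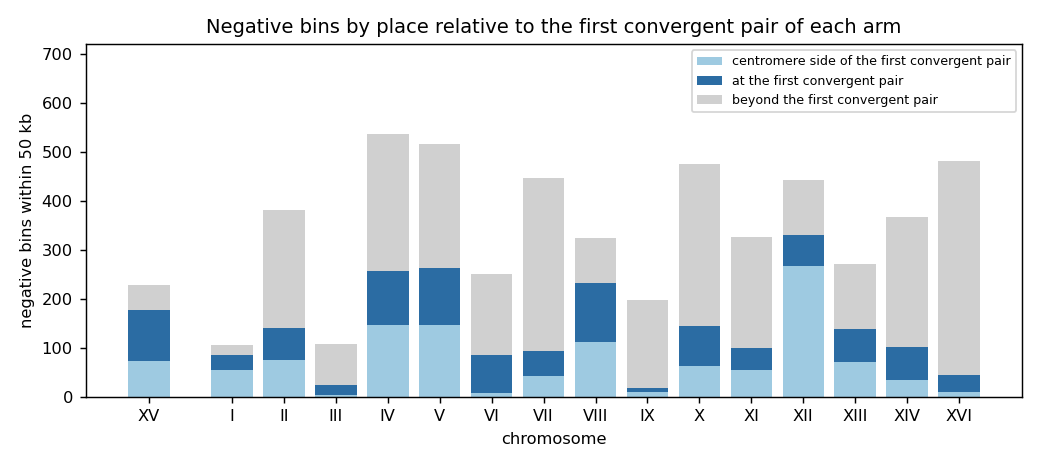
Number of negative bins within 50 kb of each centromere, with XV first and the other chromosomes after it. Bars are stacked from 0 and split by place relative to the first convergent pair of each arm, with 500 bp of each gene. XV has 228 bins in all, 105 of them at its pairs, and the totals of the others run from 105 to 537.

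None of 18 genes examined, which were cohesin and kinetochore genes and NDT80, lies in the window. NDT80 is deleted in both groups, so its lack of bins carries no information. Over the genome 1 of the 18 held negative bins, MCD1, for the mitotic kleisin, beside the centromere of IV, and none a positive one. Of all annotated genes, 2.74% held a negative bin and 9.17% a positive one. Whether the 18 genes differ from those shares was not tested. The listed bins of the window therefore say nothing about the loci of the proteins studied.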

How the data were processed

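Rec8 ChEC-seq of 3 ctf19-9A and 3 WT cultures was read from the authors' 1 deposited comparison table. Per the file headers, each row is a 20 bp bin with its p-value, false discovery rate (adjusted p) and log2 fold change, the last also in shrunken form. Builds R64 and sacCer3 and the tools DESeq2, Bowtie2 2.5.0, deepTools 3.4.3 and FastQC 0.11.9 come from the submitters' processing notes. The sources used here do not give settings, filters or the bins tested. All deposited rows had an adjusted p under 0.05, and no value per sample or depth was used.

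A standard error was taken as the size of the fold change over the normal deviate that matches its two-sided p, and 95% intervals are normal ones. Bins were joined to RefSeq genes (R64) by any overlap, and strand was read from systematic names. The window's middle is that of the gap between the innermost genes. Python 3.11.15 and pandas 2.3.3 were used, and the joins were tested on simulated data. Named were, per arm and sign, the 10 genes with the most extreme bins, the 5 genes nearest the centromere on each side, convergent pairs with bins, genes beside outermost and innermost bins, and regions of at least 10 bins. TOP1, TIR4, TIR2, RCL1, MDM12 and MCD1 were named after their values were seen, as were the first-pair counts. The window, lists and rules were chosen with earlier results of these data known. Alternatives varied the threshold, the size, the window, the joining distance, the pair flank and the overlap.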

Additional observations from a re-analysis of the deposited data

How the results depend on the processing

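No paired analysis was possible because single cultures have no values in the table, and for the same reason no replicate could be left out. Of 46 alternative values for 15 results, 17 stayed within 1.5 times of a count, within the median SE of a median or within 1 kb of a distance. With an adjusted p under 0.01, the window held 110 negative bins, 21 of them on the right arm, and 0 positive ones, with 0 genes holding a positive bin. With a minimum log2 size of 0.6 it held 137 negative bins, 42 of them on the right arm, and 0 positive ones. A half-window of 25 kb held 0 positive bins and one of 100 kb held 42, with 222 and 228 negative ones. Asking for at least 3 bins left 0 genes with a positive bin, and 1000 bp of each gene gave 1 convergent pair with one. Joining only touching bins gave 32 negative regions and joining up to 1000 bp gave 5. With the sign turned there were 5 negative bins (0 left, 5 right, median -0.43, in 1 region and 1 gene, at 0 pairs, outermost 47.2 kb on the right arm) and 228 positive ones (123 left, 105 right, median 0.63, in 8 genes, at 3 pairs). The shrunken medians were -0.47 and 0.35. Depth limits could not be assessed, because the table gives no counts.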

Other observations

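The rest of chromosome XV held 847 listed bins, 729 of them positive with a median of 0.55 and 118 negative with a median of -0.67. Positive bins outnumbered negative ones over the genome as well, with 8648 positive (1.43% of all bins) and 5576 negative (0.925%). The annotated length of XV is 1090.86 kb, and whether its shares differ from those of the genome was not tested. The 118 lay 240 to 268 kb from the centromere on the right arm, in 7 groups joined as above. The group with the most bins, 59, covered the end region of SFL1 and ARP8 (588921 to 590340), with a median of -0.64. A group of 20 lay in IDH2 (580261 to 581220), which encodes a subunit of mitochondrial isocitrate dehydrogenase, with a median of -0.67. The lowest bin of these in the authors' deposited table lay beside the tRNA gene SUF5 (594321 to 594340), with -1.0, an SE of 0.22 and an adjusted p of 0.000297. That bin was about as low as the lowest one near the centromere, -1.05 with an SE of 0.18. These genes were chosen after their values were seen.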
